A study of Mus musculus with 25 samples.

Results

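The BCL2 family decides at the outer membrane of the mitochondrion whether a cell under stress lives or dies, and 10 of its genes were looked up by name: Mcl1, Bcl2, Bcl2l1, Bcl2l2, Bcl2l11, Bax, Bak1, Bid, Bad and Bbc3. Of these, 7 were measured, as 7 of the 17591 genes and 25 of the 163315 introns with values in every library. Bcl2, Bcl2l1 and Bcl2l11 were not analysed here. All 7 genes passed the filter on low counts, and 19 of their 25 introns had enough reads to be tested.

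Female mice aged 4 to 5 weeks received orthotopic transplants of triple-negative mammary tumors from 4 engineered models and were then given H3B-8800, which binds the spliceosome's SF3B complex and is taken by mouth, or vehicle every day. The groups were PyMT-M tumors in C57BL/6 mice (4 H3B-8800 and 4 vehicle libraries), AT3 tumors in C57BL/6 mice (2 and 3), 2208L tumors in Balb/c mice (3 and 3) and T11 tumors in Balb/c mice (3 and 3), 25 libraries in all. Polyadenylated RNA of whole tumors was sequenced, so each library mixes tumor and host cells, and each model is 1 transplanted line. By the labels, PyMT-M and 2208L tumors responded and AT3 and T11 tumors did not. The design speaks of 3 or 4 tumors in each condition, whereas treated AT3 tumors number 2 here.

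The proteins of the family fall into 3 roles. MCL1 and BCL2L2 (also called BCL-W) hold the effectors in check, BAX and BAK1 are the effectors that open pores in the outer membrane, and BID, BAD and BBC3 (also called PUMA) are BH3-only proteins that trigger the effectors or neutralise the guardians. MCL1 protein is short lived and controlled by translation and regulated decay as well as by its messenger RNA, and in human cells skipping of its middle exon gives a short form that promotes death instead of blocking it. SF3B recognises the branch point near the 3′ end of introns, and compounds that bind it cause introns to be kept or exons to be skipped.

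Libraries held 10863779 to 22377777 reads overlapping introns, of which 858362 to 5684308 lay inside an intron. Reads inside introns made up 17.8 to 27.8% in PyMT-M H3B-8800 libraries, against 10.5 to 20% in PyMT-M vehicle libraries, and the H3B-8800 libraries ran higher in AT3 (14.2 to 20.4%, against 9.63 to 15.9%) and 2208L (13.3 to 14.9%, against 7.90 to 10.4%) as well. T11 went against its labels, with 9.33 to 12% in the libraries labelled H3B-8800 and 11.5 to 18.1% in those labelled vehicle, so every T11 value below is given by label and none is read as a drug effect. The epithelial markers summed to 3193 to 6632 CPM in PyMT-M and 2208L libraries of either treatment but to 101 to 509 CPM in AT3 and T11, where Epcam did not pass 8.07 CPM. Marker genes of skeletal muscle or B cells summed to over 50 CPM in 6 libraries: PyMT-M H3B-8800 replicates 1 and 2, AT3 vehicle replicate 2, 2208L vehicle replicate 1, T11 H3B-8800 replicate 2 and T11 vehicle replicate 3.

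Mcl1 lies on chromosome 3 (mm10, plus strand) and has 2 introns in the transcript listed. Intron 1 spans 273 bases at chr3:95659488-95659760 and intron 2 spans 698 bases at chr3:95660009-95660706, and neither holds an annotated exon. The exon between them is printed because one of its flanking introns moved with the drug and the other did not pass the test. It has 248 bases, which is not a multiple of 3, so a transcript without it changes frame. In the sequence (GENCODE M21 transcript, mm10, chr3:95659761-95660008, plus strand) the capitals mark the first and last 3 bases of the exon.
Mcl1 exon 2: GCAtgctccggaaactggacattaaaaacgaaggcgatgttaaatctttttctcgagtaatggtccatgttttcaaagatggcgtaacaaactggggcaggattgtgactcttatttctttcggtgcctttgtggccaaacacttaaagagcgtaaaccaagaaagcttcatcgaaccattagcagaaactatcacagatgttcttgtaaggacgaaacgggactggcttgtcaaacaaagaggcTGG

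Both introns of Mcl1 held reads in every group. Set against the gene's spliced reads, intron 1 rose with H3B-8800 in PyMT-M and 2208L, and intron 2 did not pass in any model, with the difference between the introns not tested. The percentages give how many of the reads at an intron lay inside it rather than being spliced across it. Longer introns collect more reads, so such a percentage is no share of transcripts. In PyMT-M, intron 1 held 27.6, 19.7, 14.8 and 20.1% in the 4 H3B-8800 libraries, against 10.5, 5.39, 12 and 3.76% in the 4 vehicle libraries. All 4 treated libraries lay above all 4 vehicle libraries. In AT3 it held 21.1 and 25.8% with H3B-8800, against 12.8, 6.04 and 8.51% with vehicle. In 2208L it held 18.6, 16.5 and 15.6% with H3B-8800, against 3.62, 11.5 and 6.07% with vehicle. In each of these 3 models the groups did not overlap. Averaged over the 3 models, the H3B-8800 libraries were 12.3 percentage points above the vehicle libraries (exact permutation within models, 2-sided p = 7.14e-05, the smallest that the 14000 arrangements can give). T11 was left out because its intron reads had run against its labels in earlier results. With all 4 models by label the difference was 7.04 points (exact permutation within models, p = 0.0134). Within single models the exact p was 0.0286 in PyMT-M, 0.1 in AT3 and 0.1 in 2208L, each the smallest its design allows.

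The intron test compares intronic reads with the spliced reads of the gene across all 52042 introns with enough reads. By that test intron 1 of Mcl1 rose by 1.68 ± 0.46 in PyMT-M (log2 change ± SE, adjusted p = 0.00206, edgeR) and by 1.59 ± 0.53 in 2208L (adjusted p = 0.0272). The change of 1.40 ± 0.57 in AT3 did not pass (adjusted p = 0.0768). The call in 2208L rests on few reads, 62 to 76 in H3B-8800 libraries and 8 to 28 in vehicle libraries. It was lost without vehicle replicate 1 or 3, or without H3B-8800 replicate 1 or 3 (adjusted p = 0.0516 to 0.143), while the change stayed at 1.27 or more. The 3 changes did not differ detectably from one another, with differences of 0.28 ± 0.73 (PyMT-M minus AT3), 0.08 ± 0.70 (PyMT-M minus 2208L) and 0.20 ± 0.77 (2208L minus AT3). Those errors leave room for differences as large as the changes themselves.

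Intron 2 of Mcl1 held many reads in every group and did not pass this test in any model. It held 46.4, 45.2, 39.1 and 43.6% in PyMT-M H3B-8800 libraries, against 47.3, 24.9, 38.5 and 35.3% in PyMT-M vehicle libraries. In AT3 it held 47.0 and 56.0% with H3B-8800, against 45.2, 64.2 and 59.9% with vehicle, and in 2208L 51.4, 36.8 and 54.3%, against 30.0, 49.6 and 43.4%. The groups overlapped in all 3 models. The log2 changes were 0.33 ± 0.34 in PyMT-M, -0.23 ± 0.43 in AT3 and 0.26 ± 0.39 in 2208L. Over the 3 models the difference was 2.89 points (exact permutation, p = 0.480). Its intronic reads alone averaged 30.9 ± 2.51 CPM in PyMT-M H3B-8800 libraries and 16.4 ± 6.92 CPM in vehicle libraries (SD, n = 4 each), without overlap. Measured against library size in place of the spliced reads of the gene, intron 2 thus rose in PyMT-M by 0.91 (adjusted p = 0.0154). In the T11 libraries labelled H3B-8800, intron 1 held 5.58, 10.6 and 9.28%, against 21.9, 16.5 and 13.0% in those labelled vehicle. That is the opposite order, without overlap, and the change of -1.17 ± 0.52 did not pass (adjusted p = 0.104). Intron 2 overlapped in T11, with a change of -0.04 ± 0.39.

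**Figure D1:**
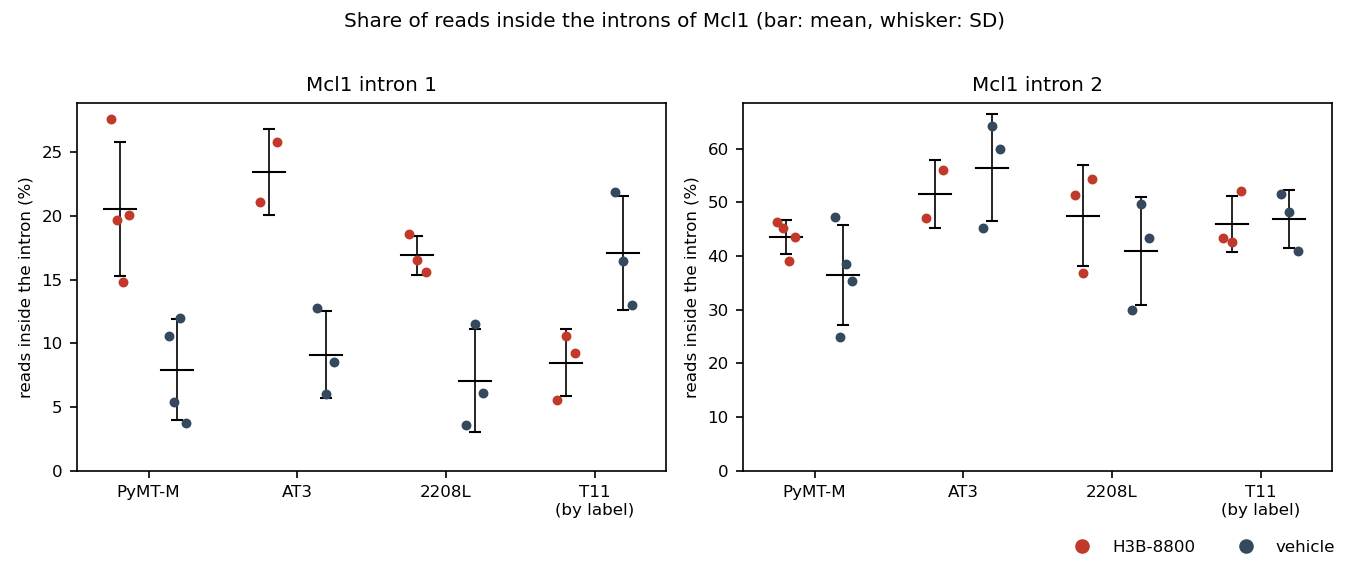
Share of reads inside intron 1 (left) and intron 2 (right) of Mcl1, in percent, for each library by model, with H3B-8800 in red and vehicle in dark blue, and with the mean (bar) and SD (whisker). Intron 1 of PyMT-M, AT3 and 2208L lay at 14.8 to 27.6% with H3B-8800 and at 3.62 to 12.8% with vehicle, T11 ran the other way, and intron 2 overlapped in every model.

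The 2 junctions of Mcl1 were not read equally. Junction 1 carried fewer spliced reads than junction 2 in all 25 libraries, at 39.6 to 66.3% of it. In PyMT-M junction 1 averaged 49.2 ± 5.30% of junction 2 with H3B-8800 and 44.4 ± 3.07% with vehicle (SD, n = 4 each). In AT3 the H3B-8800 libraries averaged 44.2 ± 6.60% (n = 2) and the vehicle libraries 56.0 ± 4.90% (n = 3). In 2208L they averaged 54.4 ± 7.96% with H3B-8800 and 43.8 ± 1.13% with vehicle (n = 3 each). The order of the treatments thus differed between AT3 and the other 2 models, with no test made. Counts were given for each intron and not for each junction, so reads that skip the middle exon could not be told apart. Whether such reads entered the spliced reads of either intron could not be seen.

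The level of Mcl1, counted as its spliced reads scaled to library size (CPM), was higher with H3B-8800 in PyMT-M, by 1.51-fold. The 4 H3B-8800 libraries held 59.0, 52.6, 68.2 and 59.3 CPM, against 41.7, 44.0, 38.5 and 33.9 CPM in the vehicle libraries. The groups did not overlap, and the log2 change was 0.60 ± 0.11 (adjusted p = 0.00084 over all 13001 genes tested). In 2208L the H3B-8800 libraries held 88.8, 88.3 and 71.2 CPM, against 69.0, 60 and 66.8 CPM with vehicle. These did not overlap either, and the log2 change of 0.34 ± 0.13 did not pass (adjusted p = 0.0994), although it did with DESeq2 (0.36, adjusted p = 0.03). AT3 held 53.5 and 46.3 CPM with H3B-8800, against 43.6, 40.2 and 42.1 CPM with vehicle, a log2 change of 0.25 ± 0.15 (adjusted p = 0.501) that was -0.05 when scaled by the library totals behind the deposited RPKM. T11 libraries labelled H3B-8800 held 40.0, 38.0 and 42.1 CPM, against 41.2, 48.0 and 45.2 CPM in those labelled vehicle, which overlapped (-0.16 ± 0.13).

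The sums of some cell type markers differed between the treatments. The 9 macrophage markers summed to 570 to 855 CPM in PyMT-M H3B-8800 libraries, against 137 to 374 CPM in vehicle libraries, and to 1443 to 1660 CPM in 2208L H3B-8800 libraries, against 284 to 911 CPM in vehicle libraries. The 8 B cell markers summed to 15.6 to 21.5 CPM in 2208L H3B-8800 libraries, against 1.31 to 5.04 CPM with vehicle, and to 3.64 to 5.82 CPM in PyMT-M H3B-8800 libraries, against 1.99 to 3.15 CPM with vehicle. The 5 neutrophil markers summed to 71.3 to 79.3 CPM in 2208L H3B-8800 libraries, against 94.8 to 131 CPM with vehicle. None of these ranges overlapped. In AT3 the macrophage, B cell and neutrophil sums overlapped between treatments, as did the neutrophil sums in PyMT-M. The epithelial, T cell and endothelial sums overlapped in PyMT-M and 2208L. In AT3 the epithelial sums did not, at 232 to 509 CPM with H3B-8800, against 162 to 209 CPM with vehicle. The part of these markers in the gene levels was not tested, and fewer cells of a type cannot be told apart from less RNA per cell in whole tumors. Without the libraries over 50 CPM of muscle or B cell markers, which include 2 PyMT-M H3B-8800 libraries, the change of Mcl1 in PyMT-M was 0.73 (adjusted p = 0.00724).

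The other guardian measured, Bcl2l2, did not pass in any model. It held 13.9, 17.4, 25.3 and 15.4 CPM in PyMT-M H3B-8800 libraries, against 10.7, 10.9, 18.3 and 8.73 CPM with vehicle. The groups overlapped through vehicle replicate 3, and the log2 change was 0.57 ± 0.32 (adjusted p = 0.211). Its changes elsewhere were 0.79 ± 0.43 in AT3, 0.37 ± 0.40 in 2208L and 0.09 ± 0.40 in T11 by label.

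Of the effectors, Bak1 rose in PyMT-M and Bax did not pass. Bak1 held 65.3, 56.0, 58.1 and 59.0 CPM in PyMT-M H3B-8800 libraries, against 49.5, 47.0, 41.3 and 40.3 CPM with vehicle, without overlap (log2 change 0.42 ± 0.11, adjusted p = 0.0069). That call was lost without the libraries over 50 CPM of muscle or B cell markers, although the change was not smaller (0.44, adjusted p = 0.0689). Those left out include PyMT-M H3B-8800 replicates 1 and 2. With the library totals behind the RPKM the call was lost too (0.32, adjusted p = 0.16). In 2208L it held 51.1, 43.9 and 47.7 CPM, against 41.2, 39.1 and 35.4 CPM, which did not overlap and did not pass (0.30 ± 0.12, adjusted p = 0.121), although it did with DESeq2 (0.32, adjusted p = 0.0441). The level of Bax scattered widely within groups, at 237, 195, 219 and 191 CPM in PyMT-M H3B-8800 libraries, against 130, 197, 170 and 237 CPM with vehicle. The 2 AT3 H3B-8800 libraries stood at 195 and 91.3 CPM, against 87.4 to 101 CPM in the 3 vehicle libraries. Its log2 changes ran over -0.21 ± 0.26 in 2208L, 0.20 ± 0.22 in PyMT-M and 0.62 ± 0.29 in AT3, none past the threshold.

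Among the BH3-only genes, Bid fell in PyMT-M to less than in any other group. Its 4 H3B-8800 libraries held 3.56, 3.22, 3.30 and 4.79 CPM, against 7.49, 10.5, 7.68 and 10.6 CPM with vehicle. The groups did not overlap, and the level was lower by 2.44-fold (log2 change -1.29 ± 0.19, adjusted p = 6.39e-05). Bid did not fall in 2208L, where H3B-8800 libraries held 38.0, 42.1 and 40.2 CPM, against 34.7, 34.0 and 39.3 CPM with vehicle. The change there was 0.16 ± 0.20, and the difference between the 2 models passed (PyMT-M minus 2208L -1.44 ± 0.28, adjusted p = 0.00871). AT3 held 10.5 and 10.8 CPM with H3B-8800, against 15.9, 13.2 and 16.4 CPM with vehicle, without overlap but short of the threshold (-0.51 ± 0.24, adjusted p = 0.365). T11 libraries labelled H3B-8800 held 21.5, 28.4 and 19 CPM, against 10.6, 15.7 and 17.0 CPM in those labelled vehicle (0.67 ± 0.20, adjusted p = 0.0381). The T11 call was lost without H3B-8800 replicate 1 or 2 or without vehicle replicate 1 or 2 (adjusted p = 0.0557 to 0.172).

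Bad and Bbc3 did not pass in any model by edgeR on the summed spliced reads, although Bbc3 passed in PyMT-M when a gene's level was the median over its introns (-0.64, adjusted p = 0.0466). Bad held 17.3 to 21.5 CPM in PyMT-M H3B-8800 libraries, against 20.6 to 25.5 CPM with vehicle (log2 change -0.24 ± 0.21). Bbc3, a target of p53, held 5.56 to 7.16 CPM in PyMT-M H3B-8800 libraries, against 6.29 to 11.3 CPM with vehicle (-0.45 ± 0.25). In AT3 it held 4.52 and 2.70 CPM with H3B-8800, against 1.75, 2.10 and 1.35 CPM with vehicle. The AT3 groups did not overlap, and the change of 1.05 ± 0.35 did not pass (adjusted p = 0.199).

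Counted together, 3 of the 7 genes passed in PyMT-M, against 24.8% of all genes tested. Of the 3, 2 were higher and 1 lower, against 10.2% and 14.6% of all genes. In AT3 0 of 7 passed with edgeR, against 0.3% of all genes, with 3 at an unadjusted p under 0.05 and 0 with DESeq2. In 2208L 0 of 7 passed with edgeR, against 10.3% (4.67% higher), with 2 at an unadjusted p under 0.05 and 2 with DESeq2, all higher. In T11 by label 1 of 7 passed, and it was higher, against 11.7% of all genes in either direction (6.66% higher and 5.07% lower). The median log2 change of the 7 genes was 0.20 in PyMT-M, 0.33 in AT3, 0.30 in 2208L and 0.00 in T11 by label, against 0.02, 0.00, 0.00 and -0.04 over all genes. Between models, 1 of the 7 genes differed for PyMT-M minus 2208L (Bid), against 1.92% of all genes. None of the 7 differed for PyMT-M minus AT3, against 1.1%, (0.761% lower), or for 2208L minus AT3, against 0.0154% (edgeR, with 3 and 2 at an unadjusted p under 0.05). DESeq2 was not run on these differences. The mean change of PyMT-M, AT3 and 2208L minus the T11 change by label passed for 2 of 7 genes, Mcl1 and Bid, against 26.1% of all genes.

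**Figure D2:**
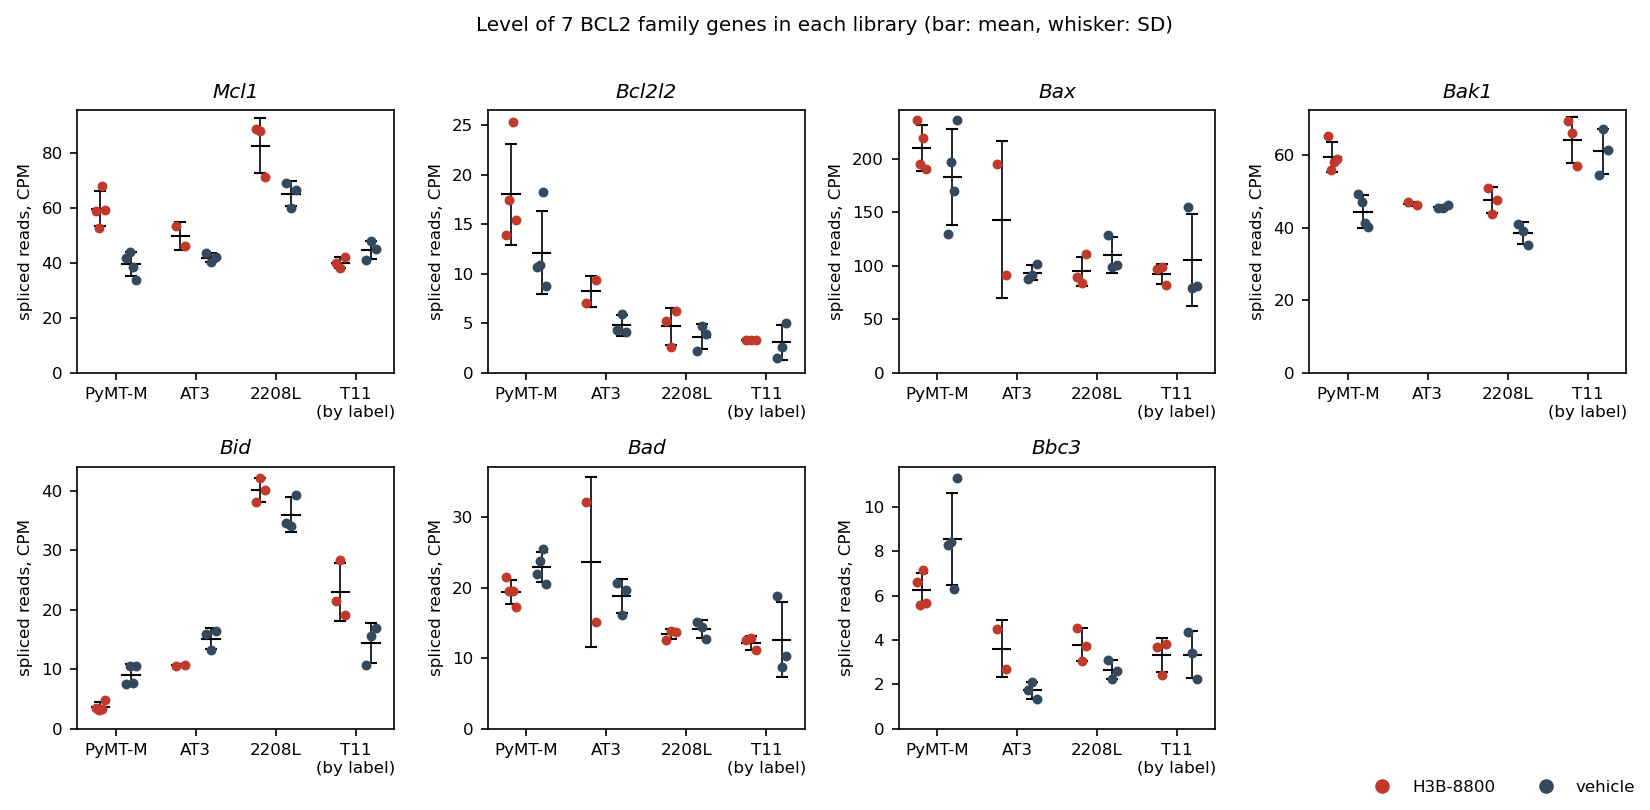
Level, in CPM of spliced reads, of the 7 BCL2 family genes in each library by model, with H3B-8800 in red and vehicle in dark blue, and with the mean (bar) and SD (whisker). In PyMT-M, Mcl1 and Bak1 lay higher and Bid lower with H3B-8800 without overlap, and Bid stood highest in 2208L, at 34.0 to 42.1 CPM.

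Some of these genes differed between the models in vehicle tumors, as did 40.5 to 63.4% of all genes from pair to pair. In vehicle tumors Mcl1 stood highest in 2208L at 65.3 ± 4.66 CPM (SD, n = 3), followed by T11 libraries labelled vehicle at 44.8 ± 3.39 CPM (n = 3), AT3 at 41.9 ± 1.70 CPM (n = 3) and PyMT-M at 39.5 ± 4.36 CPM (n = 4). The last 3 did not differ from each other past the threshold, and 2208L passed over AT3 (log2 0.64 ± 0.13), over T11 (0.54 ± 0.13) and against PyMT-M (PyMT-M over 2208L -0.72 ± 0.12). Bid averaged 9.09 ± 1.73 CPM in PyMT-M and 36.0 ± 2.89 CPM in 2208L, with PyMT-M over 2208L at -1.99 ± 0.19 (adjusted p = 6.9e-08). AT3 averaged 15.2 ± 1.71 CPM and T11 libraries labelled vehicle 14.4 ± 3.34 CPM, which did not differ past the threshold. The places of T11 rest on its labels: the T11 libraries labelled H3B-8800 averaged 40.0 ± 2.01 CPM of Mcl1, under AT3 vehicle tumors, and 23.0 ± 4.82 CPM of Bid, above them.

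PyMT-M vehicle tumors held more Bcl2l2, Bax and Bbc3 than AT3, which grew in the same strain (log2 1.35 ± 0.37, 0.97 ± 0.25 and 2.30 ± 0.30). Bbc3 averaged 8.58 ± 2.07 CPM in PyMT-M and 1.73 ± 0.37 CPM in AT3. Bad was higher in PyMT-M than in 2208L (0.70 ± 0.23) and T11 (0.87 ± 0.24), and Bak1 was lower in 2208L than in T11 (-0.66 ± 0.12). In all, 4 of the 7 genes passed for PyMT-M over AT3 (3 higher), against 60% of all genes (32.1% higher). For PyMT-M over 2208L 6 passed (4 higher), against 45.5% (23.5% higher), and for PyMT-M over T11 6 passed (4 higher), against 63.4% (32.1% higher, 31.3% lower). For 2208L over AT3 2 passed, both higher, against 45.2%. For 2208L over T11 3 passed (2 higher, 1 lower), against 45.6% (23.1% higher, 22.5% lower), and for AT3 over T11 2 passed, both lower, against 40.5% (22.4% lower). Strain and model cannot be told apart where the 2 models grew in different strains.

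Divided by the number of junctions, the spliced reads placed Mcl1 above Bax in 2208L vehicle tumors (32.6 ± 2.33 and 21.9 ± 3.39 CPM per junction) and below it in PyMT-M vehicle tumors (19.8 ± 2.18 and 36.7 ± 9.0). Junctions of the same gene were not read equally, so this average is only a rough scale between genes. In 2208L vehicle tumors Bax averaged 12.1 CPM across intron 1 and 30.3 CPM across intron 4. In AT3 vehicle tumors Mcl1 held 21.0 ± 0.85 and Bax 18.7 ± 1.42 CPM per junction. Bid held 7.20 ± 0.579 CPM per junction in 2208L vehicle tumors, close to Bak1 at 7.72 ± 0.589, and 1.82 ± 0.346 in PyMT-M vehicle tumors, the lowest of the 7 genes there. Over the 25 libraries the levels of Bax and Bbc3 went together (Pearson r = 0.78 on log2(CPM + 1)), and those of Bid ran against Bcl2l2 (r = -0.76) and Bax (r = -0.72). These describe libraries that share their models, and Mcl1 correlated with none of the other 6 genes beyond 0.31. The genes whose levels were most like Mcl1 over the 25 libraries were M6pr (r = 0.89), Vps37a (0.88), Mal2 (0.87), Ctsd (0.86) and Clec2f (0.86), out of 13000 compared.

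H3B-8800 binds where the 3′ end of an intron is recognised. The 3′ ends of 4 introns described next are therefore shown, from Bid, Bbc3, Bad and Bax (mm10). Their printed bases lie in exons of GENCODE M21 transcripts, which need not span the whole intron. The capitals mark the AG that ends the intron, and the next 10 bases are exon.
Bid intron 3: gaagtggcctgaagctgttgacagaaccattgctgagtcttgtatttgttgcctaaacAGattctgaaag
Bbc3 intron 2: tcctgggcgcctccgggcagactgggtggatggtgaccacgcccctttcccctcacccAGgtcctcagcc
Bad intron 2: ttcctcctccttccctgaAGggacttcctc
Bax intron 1: tttcctcctctctcccccAGggcccaccag
They lie at chr6:120897350-120897419 (minus strand), chr7:16313567-16313636 (plus), chr19:6951379-6951408 (plus) and chr7:45466262-45466291 (minus). Of the bases before the AG, 65.0% of 20 were pyrimidines in Bid intron 3, 85.0% of 20 in Bbc3 intron 2, 88.9% of 18 in Bad intron 2 and 100% of 18 in Bax intron 1. All 4 of these introns were among those called higher in PyMT-M. No uncalled intron is shown beside them, so a link between these bases and the change was not tested.

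Intron 2 of Bid (1356 bases, chr6:120900367-120901722, minus strand, holding no annotated exon) had the largest mean absolute log2 change over PyMT-M, AT3 and 2208L among the 19 introns tested. Its share of reads was 73.0, 59.3, 86.4 and 72.7% in PyMT-M H3B-8800 libraries, against 54.5, 7.14, 19 and 20% with vehicle. In 2208L it was 45.6, 46.3 and 47.3% with H3B-8800, against 0, 1.56 and 9.76% with vehicle. In AT3 it was 36.4 and 74.5% with H3B-8800, against 21.4, 18.2 and 23.3% with vehicle. The groups did not overlap in any of the 3, and the log2 changes were 3.35 ± 0.62, 3.95 ± 0.74 and 2.47 ± 0.74 in PyMT-M, 2208L and AT3 (adjusted p = 2.66e-05, 0.00036 and 0.0170).

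These shares rest on few reads, at most 88 inside the intron in a library and 3 to 12 spliced across it in PyMT-M H3B-8800 libraries. The AT3 call was lost without H3B-8800 replicate 2 (1.71, adjusted p = 0.315), and also without vehicle replicate 1 or 3 (adjusted p = 0.0805 and 0.0597). The reads inside the intron averaged 1.73 ± 0.57 CPM in PyMT-M H3B-8800 libraries and 0.377 ± 0.252 CPM with vehicle (SD, n = 4 each), while the reads spliced across it averaged 0.650 ± 0.287 CPM with H3B-8800 and 1.25 ± 0.485 CPM with vehicle. In 2208L the reads inside averaged 5.11 ± 0.75 CPM with H3B-8800 and 0.296 ± 0.442 CPM with vehicle (n = 3 each), and the spliced reads 5.89 ± 0.74 CPM with H3B-8800 and 5.59 ± 1.72 CPM with vehicle. The intron thus filled in both models, while the spliced reads of Bid were lower only in PyMT-M of these 2, a difference tested above. T11 again ran the other way, at 11.8, 9.76 and 4.08% in libraries labelled H3B-8800, against 52.2, 57.0 and 60.7% in those labelled vehicle (-3.60 ± 0.70, adjusted p = 0.00032). The T11 call was lost without the libraries of muscle or B cell markers of all models by the planned limit (-3.56, adjusted p = 0.0564).

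**Figure D3:**
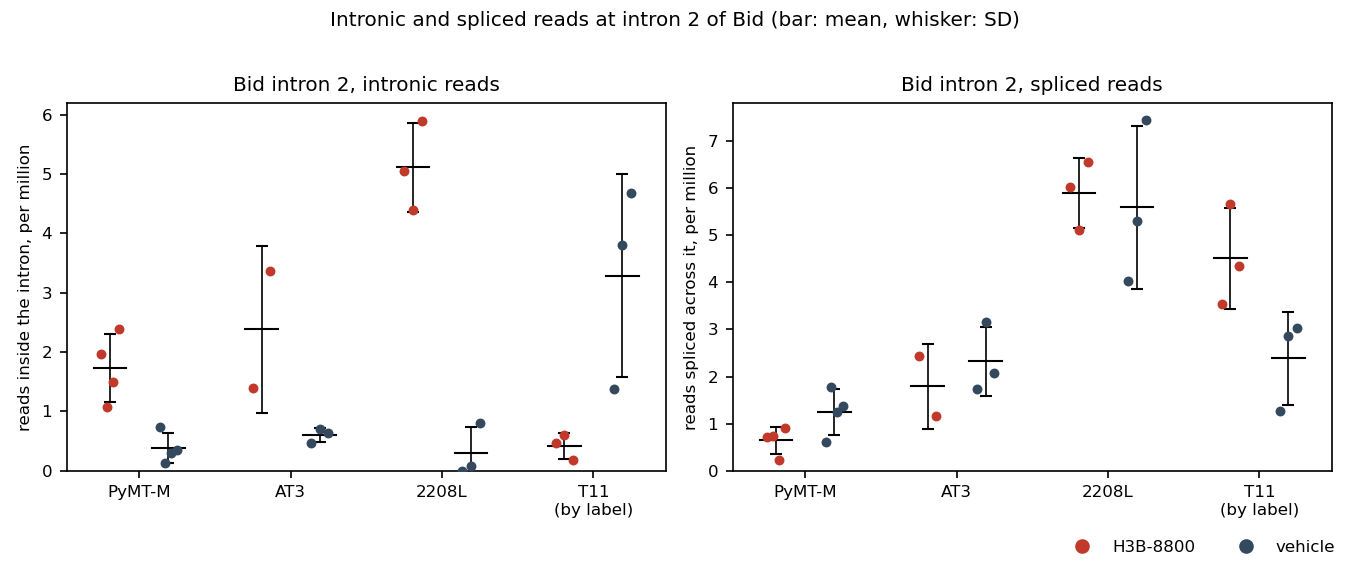
Reads inside intron 2 of Bid (left) and reads spliced across it (right), in CPM, for each library by model, with H3B-8800 in red and vehicle in dark blue, and with the mean (bar) and SD (whisker). Reads inside the intron were 4.40 to 5.89 CPM in 2208L H3B-8800 libraries and 0 to 0.804 CPM in 2208L vehicle libraries, while the spliced reads overlapped.

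Intron 2 of Bad (568 bases, chr19:6950831-6951398, plus strand) was the other intron called higher in all 3 models. It held 34.5, 40.3, 34.3 and 39.0% in PyMT-M H3B-8800 libraries, against 7.05, 10.3, 11.4 and 16.4% with vehicle. In AT3 it held 27.4 and 41.0% with H3B-8800, against 6.35, 12.2 and 6.82% with vehicle, and in 2208L 30.0, 22 and 29.7%, against 13.3, 5.68 and 5.56%. The groups did not overlap in any of the 3, with log2 changes of 1.99 ± 0.48, 2.71 ± 0.63 and 1.89 ± 0.61 (adjusted p = 0.000673, 0.00304 and 0.0238). The AT3 call was lost without H3B-8800 replicate 2 (1.98, adjusted p = 0.119), and the 2208L call without H3B-8800 replicate 1 or 3 or vehicle replicate 2 or 3 (adjusted p = 0.0542 to 0.0851). An exon of another Bad transcript lies at least partly inside this intron, so its reads need not be retention of the listed transcript.

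Intron 1 of Bax (470 bases, chr7:45466272-45466741, minus strand) held most of the reads there in PyMT-M of either treatment. In AT3 and 2208L it did so with H3B-8800 but not with vehicle. Its share was 78.9, 81.0, 79.1 and 74.5% in PyMT-M H3B-8800 libraries, against 60.7, 58.8, 58.1 and 60.1% with vehicle. In 2208L it was 67.3, 58.4 and 58.6%, against 35.7, 43.4 and 39.9%, and in AT3 63.0 and 62.2%, against 37.7, 49.6 and 42.1%. The changes were 1.36 ± 0.30 in PyMT-M and 1.31 ± 0.35 in 2208L (adjusted p = 0.000232 and 0.00764), and 0.82 ± 0.38 in AT3 did not pass (adjusted p = 0.121). The 2208L call was lost without vehicle replicate 1, the library with muscle markers (1.16, adjusted p = 0.051). An exon of another Bax transcript lies at least partly inside this intron too.

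Intron 1 of Bid (14945 bases, chr6:120901789-120916733, minus strand) holds annotated exons on both strands, so its reads need not be retention of the listed transcript. It held 90.4 to 94.6% in PyMT-M H3B-8800 libraries, against 91.5, 54.5, 50 and 65.8% with vehicle, where vehicle replicate 1 lay within the treated range. The change was 2.62 ± 0.50 in PyMT-M and 1.81 ± 0.56 in 2208L (adjusted p = 3.9e-05 and 0.0185). The 2208L call was lost without vehicle replicate 1 or 3 or H3B-8800 replicate 2 (adjusted p = 0.0534 to 0.0924).

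The remaining introns passed as higher in 1 of PyMT-M, AT3 and 2208L or in none. Introns 3, 4 and 5 of Bax, 2 of Bak1, 3 of Bid and 2 of Bbc3 were called higher in PyMT-M only. Intron 5 of Bid was called higher in AT3 only. Passing or not, all 19 introns had a change above 0 in PyMT-M and in 2208L, against 81.3% and 80.2% of all introns. In AT3 14 did, against 81.2%. Intron 3 of Bid lay higher without overlap in all 3 models (1.75, 1.69 and 0.91 in PyMT-M, AT3 and 2208L). The share of intron 3 of Bax lay lower without overlap in AT3 and did not pass (-2.26 ± 1.43, adjusted p = 0.264). It rests on 0 to 2 reads inside the intron with H3B-8800, against 2 to 7 with vehicle. The call of Bid intron 3 was lost without the libraries over 50 CPM of muscle or B cell markers (1.45, adjusted p = 0.0863) and against library size (0.51, adjusted p = 0.443). That of Bid intron 5 was lost without AT3 vehicle replicate 1 or 2 or H3B-8800 replicate 2 (adjusted p = 0.0844 to 0.68). The differences between models were not past the threshold for any of the 19 introns, against 0.00576% (PyMT-M minus AT3), 0.117% (PyMT-M minus 2208L) and 0.00192% (2208L minus AT3) of all introns. At an unadjusted p under 0.05 there were 2, 1 and 0 of the 19 (edgeR, the only tool run on introns). Intron 2 of Bbc3 came nearest for PyMT-M minus 2208L (2.86 ± 0.80, adjusted p = 0.133), with 93.0, 75.4, 86.0 and 85.0% in PyMT-M H3B-8800 libraries, against 37.8, 40.0, 55.2 and 42.9% with vehicle. The 3 introns of Bcl2l2, intron 1 of Bad, intron 4 of Bak1, intron 3 of Bbc3 and intron 2 of Mcl1 did not pass in PyMT-M, AT3 or 2208L by the test as set out above. Bak1 intron 4 passed in 2208L without vehicle replicate 2 (adjusted p = 0.0108). It held 0 to 6 reads inside it in the 2208L vehicle libraries, against 8 to 13 with H3B-8800. The median vehicle share was 0%. The change of 6.68 without that replicate, against 1.93 with it, is therefore no measure of size. Bbc3 intron 3 passed in PyMT-M with the libraries of that model alone (1.02, adjusted p = 0.0266) and in AT3 against library size (2.00, adjusted p = 0.0271). Bak1 introns 2 and 4 overlap exons of Ggnbp1 on the other strand. Annotated exons of the same strand lie at least partly inside Bax intron 5, Bid introns 3 and 5 and Bbc3 intron 2. The same holds for the 3 introns of Bcl2l2, intron 1 of Bad and intron 4 of Bak1. The reads of these introns need not be retention of the listed transcript.

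Of the 19 introns, 11 were called higher in PyMT-M and 0 lower, against 60.3% of all introns called in either direction, 54.7% higher and 5.67% lower. In AT3 3 were called higher and 0 lower, against 19.4% and 0.321%. In 2208L 5 were called higher and 0 lower, against 21% and 0.536%. At an unadjusted p under 0.05, 0 of the 19 fell in any of these 3 models. In T11 by label 0 were called higher and 5 lower, against 0.759% and 19.7%. Single libraries moved these counts: in AT3, 0 passed without H3B-8800 replicate 2, while 1 and 7 passed without vehicle replicates 1 and 2, and in 2208L 2 without vehicle replicate 1 or 3 and 3 without H3B-8800 replicate 1 or 3. In T11 it was 8 without vehicle replicate 1, 2 without vehicle replicate 2 or H3B-8800 replicate 1, and 3 without H3B-8800 replicate 2 or 3. The median log2 change of the 19 was 1.60 in PyMT-M, 1.14 in AT3, 1.09 in 2208L and -1.11 in T11 by label, against 1.57, 1.10, 1.07 and -0.84 over all introns. The members thus moved about as far as introns in general did. The mean change of PyMT-M, AT3 and 2208L minus T11 by label passed for 12 of the 19, all higher, against 52.1% of all introns. The 6 introns not tested were Bax 2, Bak1 1, 3 and 5 and Bid 4, with means of 0.12 to 4.28 intronic reads, and Bbc3 1, with a mean of 9.92 spliced reads.

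**Figure D4:**
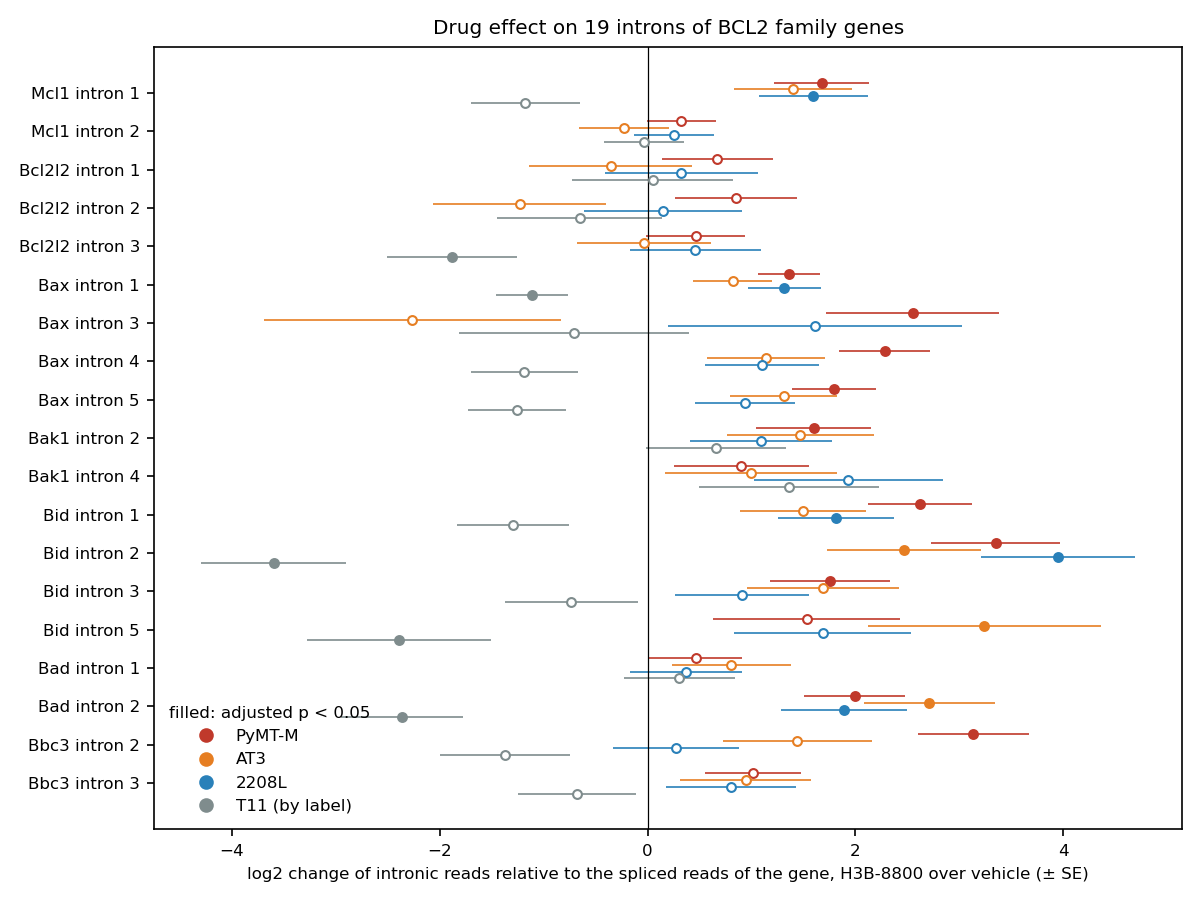
Log2 change of intronic reads, set against the gene's spliced reads, H3B-8800 over vehicle, with its SE, for the 19 introns of BCL2 family genes in 4 models. Filled points have an adjusted p under 0.05. Most points of PyMT-M, AT3 and 2208L lie right of 0. Those of T11 by label lie mostly left of it, with 4 of 19 above 0, against 23.6% of all introns.

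Around these genes, 39 of 41 other genes of mitochondrial apoptosis were tested. In PyMT-M 5 rose and 9 fell, 35.9% of the list, against 24.8% of all genes. Those named rose by 0.62 ± 0.12 for Vdac1, a channel of the outer membrane, 0.64 ± 0.18 for Cycs, the cytochrome c that the pores release, 0.79 ± 0.23 for Fbxw7, part of a ubiquitin ligase that marks MCL1 for decay, and 0.54 ± 0.18 for Gsk3b, a kinase that primes MCL1 for it. Those named as lower were Bmf (-1.56 ± 0.23), another BH3-only gene, at 3.22 to 3.82 CPM with H3B-8800 and 8.73 to 12.4 CPM with vehicle, Bcl2l12 (-1.55 ± 0.32), Birc3 (-0.98 ± 0.21), an inhibitor of apoptosis, and Casp9 (-0.78 ± 0.18), the initiator caspase downstream of cytochrome c.

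Of the subgroups in PyMT-M, 2 of 12 other BCL2 family genes fell and 0 rose, 6 of 17 executors and inhibitors fell and 1 rose, 2 of 4 channels and partners rose, and 2 of 6 regulators of MCL1 protein rose and 1 fell, against 10.2% of all genes that rose and 14.6% that fell. In AT3 1 of the 39 fell, against 0.177% of all genes: Bcl2l14, with no read in either H3B-8800 library and 0.270 to 0.635 CPM with vehicle. In 2208L 1 of the 39 rose, Bcl2a1b, and 1 fell, Bnip3, against 4.67% and 5.67% of all genes. Bcl2a1b (1.12 ± 0.33) is a guardian expressed in blood cells and one of several near-identical copies, so its reads are uncertain. In 2208L the macrophage and B cell marker sums were higher and the neutrophil sum lower with H3B-8800. Their part in the change of Bcl2a1b was not tested. Bnip3, a target of hypoxia signalling, held 20.3 to 61.9 CPM with H3B-8800 and 83.0 to 391 CPM with vehicle (-2.65 ± 0.63, adjusted p = 0.0125). In T11 by label 5 of the 39 were higher and 2 lower, against 6.66% and 5.07% of all genes, among them Birc3 (0.99 ± 0.24) and Casp8 (0.51 ± 0.14) higher and Casp6 (-0.50 ± 0.15) and Vdac2 (-0.47 ± 0.15) lower. Birc3 thus went down in PyMT-M H3B-8800 tumors and up in T11 libraries labelled H3B-8800, a difference not tested here.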

How the data were processed

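Polyadenylated RNA of whole tumors was sequenced in 25 libraries of 8 groups, and per the labels' protocols the libraries were stranded. HISAT2 2.0.4 and the builds mm10 and hg38 are named per the submitters' processing notes. The counting tool is not given in the sources used here. The deposited files give, for each intron of 1 transcript per gene, intronic read counts, counts of overlapping reads, and an RPKM for intronic reads that the authors scaled to rounded library totals. The coordinates fit mm10, since 99.9% of the introns match GENCODE M21.

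Spliced reads were taken as overlapping minus intronic reads, and a gene's level as their sum over introns. A fragment across 2 junctions counts at both, and whether reads across an exon edge counted as spliced could not be seen. Genes reaching a CPM of 1 in 2 or more libraries (13001) and introns averaging 5 or more intronic reads and 10 or more spliced ones (52042) were tested with edgeR 4.0.16 (robust quasi-likelihood, TMM, 8 group means, all libraries) under R 4.3.3, introns with an offset of log spliced reads per gene. P-values were adjusted over all features (Benjamini-Hochberg, threshold 0.05). Standard errors were computed as the log2 change over the square root of F. For AT3 with H3B-8800, 2 libraries give the value, and the spread comes from all groups. The tests were run first on simulated data with known changes. Mcl1 introns were also compared by exact permutation within models. The labels do not name the animals, so p-values measure the spread between these tumor samples. DESeq2 1.42.0, other scalings and filters and fits without single libraries were alternatives. The 2 most alike libraries correlated at 0.991, and none was merged.

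The members, gene lists and tests were chosen with earlier results of these data known. One result is not reported here. Named were all members, both Mcl1 introns, other introns past the threshold in at least 2 of PyMT-M, AT3 and 2208L, up to 4 other apoptosis genes per direction and model with the smallest adjusted p, and the 5 genes most correlated with Mcl1. Other introns were named after their values were seen. The labels do not say that same-numbered libraries of the treatments belong together, and no block was used in the main fit.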

Additional observations from a re-analysis of the deposited data

Results flagged for a closer look

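Of 52 groups of 4 PyMT-M libraries checked for a library far from its group, 4 had one, and chance flags about 1 group in 20. In the vehicle group, replicate 4 held 16.8% in intron 2 of Bak1, against 5.26 to 7.17% in the others, and replicate 3 held 2.04% in intron 3 of Bax, against 0.477 to 0.596%. In intron 1 of Bcl2l2, H3B-8800 replicate 2 held 41.2%, against 34.6 to 35.6% in the others, and vehicle replicate 2 held 10.1%, against 27.6 to 30.0%. Each value rests on 7 to 54 reads inside the intron.

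The effect on Bid differed between PyMT-M and 2208L by a test of the difference (-1.44 on the log2 scale, adjusted p = 0.00871). The mean effect of PyMT-M, AT3 and 2208L also differed from that of T11 by label, a comparison chosen after earlier results were seen. For gene levels it differed in Mcl1 (0.56) and Bid (-1.21). For introns, the difference was 2.73 in Mcl1 intron 1, 2.18 in Bcl2l2 intron 3, 2.27, 2.69 and 2.60 in Bax introns 1, 4 and 5, 3.27, 6.85, 2.19 and 4.54 in Bid introns 1, 2, 3 and 5, 4.56 in Bad intron 2, and 2.99 and 1.60 in Bbc3 introns 2 and 3. In T11 the reads inside introns ran against the labels across all introns, and swapped labels cannot be told apart from an opposite effect.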

How the results depend on the processing

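No called value changed sign under any alternative run. The call of Mcl1 in PyMT-M held in every one, at 0.49 to 0.73. Other settings, for which the cause was not tested unless given, moved these results. With DESeq2, 2 member genes passed in 2208L, with Mcl1 at 0.36. In T11 by label the 1 member gene called became 0 in the model-alone fit, with the replicate block and without libraries of muscle or B cell markers (planned or 50 CPM limit), and 0 to 1 without single replicates. Member introns called became, among introns without an annotated exon (7 tested) and without one on either strand (6 tested), 5 and 4 in PyMT-M, 1 and 1 in AT3, 2 and 2 in 2208L, and 1 and 1 in T11. Against library size, 7 passed in AT3, with Mcl1 intron 1 at 1.62 there and Mcl1 intron 2 at 0.91 in PyMT-M. With no low-count filter and with the offset of the same intron, 3 and 3 passed in 2208L and 2 and 3 in T11, and Mcl1 intron 1 in 2208L was 1.59 and 1.39, below the threshold. In the model-alone fit 3 passed in T11. Without libraries of other tissues, the planned limit gave 1 in AT3 and 1 in T11, and it left 2208L with no H3B-8800 library. The 50 CPM limit, chosen after seeing the data, gave 1 in 2208L and 2 in T11, and Mcl1 intron 1 in 2208L at 1.27. Without single replicates, introns called ran from 0 to 7 in AT3, 2 to 5 in 2208L and 2 to 8 in T11, and Mcl1 intron 1 in 2208L from 1.27 to 2.18. Same-numbered libraries correlated at -0.395 to 0.483 in 12 pairs, 5 of them above 0.1, and in PyMT-M at 0.0444 to 0.483. Deviations within such small groups depend on each other, so these values cannot show whether the numbers pair the libraries. The replicate block left 3 genes and 11 introns called in PyMT-M, 5 introns in 2208L, 4 in T11 and 2 in AT3. In AT3 Bid intron 2 was no longer called with the block (2.35, adjusted p = 0.0935) or against library size (1.98, adjusted p = 0.0646). Scaling by the library totals behind the RPKM, chosen after seeing the data, shifted the members' log2 changes by a median of -0.10 in PyMT-M, -0.30 in AT3, 0.07 in 2208L and 0.31 in T11. With all 4 models by label, the mean difference in Mcl1 intron 1 was 7.04 points (exact permutation within models, p = 0.0134).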
